A study of Mus musculus with 9 samples.

Results

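Major urinary proteins (MUPs) are small secreted carriers of the lipocalin family, and this account follows 8 of their genes, Mup1, Mup2, Mup3, Mup4, Mup5, Mup7, Mup20 and Mup21, in mouse liver. The 8 were chosen by name and all were found among the 20325 genes of the deposited tables, which hold 19 rows with a Mup number in all. The RNA was that of whole liver from male mice (C57BL/6J, chow diet), and each of the 3 groups had 3 livers. ConvD mice were germ-free animals that received, by a single gavage, cecal contents of conventionally raised donors. GF+SCFA mice were kept germ-free, and their water held short-chain fatty acids: acetate at 67.5 mM, butyrate at 40 mM and propionate at 25.9 mM. GF mice were kept germ-free without these acids. No group carried a transgene or deletion. The labels give 14 weeks of age in 1 place, and gavage at 15 weeks with dissection at 19 weeks in another. Cages held mice of 1 colonisation status, so cage and colonisation cannot be told apart. The labels call the livers biological replicates without naming the animals, so the tests weigh differences against the spread among these livers only.

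MUP genes sit in a cluster on chromosome 4, and adult male mice make their products in hepatocytes, release them into blood and pass them through the kidney into urine. There the proteins bind small volatile pheromones and release them slowly, and some act as pheromones themselves. Hepatic transcription is known to depend on growth hormone through STAT5 and on androgens, thyroid hormone and glucocorticoids. A central part of the cluster holds near-identical gene copies, while genes at its edges differ more from each other. Mup20, also called darcin, encodes the male pheromone protein that attracts females. Mup4 and Mup5 are known mainly from nasal, lacrimal and salivary tissue. In the GRCm38.p6 gene order the cluster starts with Mup4, runs through Mup7, Mup2 and Mup1 and ends with Mup5, Mup20, Mup3 and Mup21.

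How far a read can be assigned to 1 of these genes depends on their sequence, so the same stretch of coding sequence is shown for the 8 members. It covers bases 67 to 126 of the 543-base Mup2 coding sequence, with capitals where a gene differs from Mup2. Among stretches of this length aligned without gaps in all 8 members, it was chosen for the most differences from Mup2 in total. The sequences come from the GENCODE M21 transcripts of the same RefSeq accessions (build GRCm38), read 5′ to 3′ on the coding strand.
Mup2: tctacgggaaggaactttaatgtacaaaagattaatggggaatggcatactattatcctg
Mup1: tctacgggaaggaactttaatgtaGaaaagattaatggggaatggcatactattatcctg
Mup7: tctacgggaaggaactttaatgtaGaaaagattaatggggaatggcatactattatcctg
Mup20: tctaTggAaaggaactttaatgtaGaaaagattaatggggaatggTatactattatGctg
Mup4: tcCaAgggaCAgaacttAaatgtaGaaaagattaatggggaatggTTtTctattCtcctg
Mup5: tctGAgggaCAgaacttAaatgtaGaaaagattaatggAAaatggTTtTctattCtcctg
Mup3: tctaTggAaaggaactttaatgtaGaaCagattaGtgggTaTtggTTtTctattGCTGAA
Mup21: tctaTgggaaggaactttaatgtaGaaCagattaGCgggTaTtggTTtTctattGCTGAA
Mup1 and Mup7 differ from Mup2 at 1 base of this stretch, Mup20 at 5, Mup4 at 10, Mup5 at 12, and Mup3 and Mup21 at 16 each.

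The next 60 bases, 127 to 186 of the Mup2 coding sequence, are those where Mup20 departs most from Mup2, and they are shown because the results turn on Mup20. Capitals again mark differences from Mup2.
Mup20: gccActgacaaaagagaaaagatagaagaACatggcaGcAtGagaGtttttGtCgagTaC
Mup2: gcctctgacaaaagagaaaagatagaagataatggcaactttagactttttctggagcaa
Mup7: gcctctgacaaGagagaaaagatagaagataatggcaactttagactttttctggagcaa
Here Mup20 differs at 11 bases, Mup7 at 1 and Mup1 at 0. Over the aligned coding sequence Mup1 was 99.45% identical to Mup2 and Mup7 98.71%. Mup20 was 91.34% identical, Mup5 90.42%, Mup4 89.44%, Mup3 85.55% and Mup21 84.7%.

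The 8 members therefore fall into 2 kinds for read counting. Of all 50-base stretches in their transcripts, Mup1 shared 88.6%, Mup2 91.8% and Mup7 88.4% with at least 1 other Mup gene. Mup20 shared 4.66%, Mup4 11%, Mup3 15.9%, Mup5 16.1% and Mup21 19.1%. The length of 50 bases is a choice made here, since the read length is not given in the sources used here. Values of single genes among Mup1, Mup2 and Mup7 are thus uncertain, because the authors' tool, RSEM, divides shared reads by estimation, and their sum is given beside them. Of the 72 expected counts of the 8 members, 68 were not whole numbers (tolerance 0.01).

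**Figure D1:**
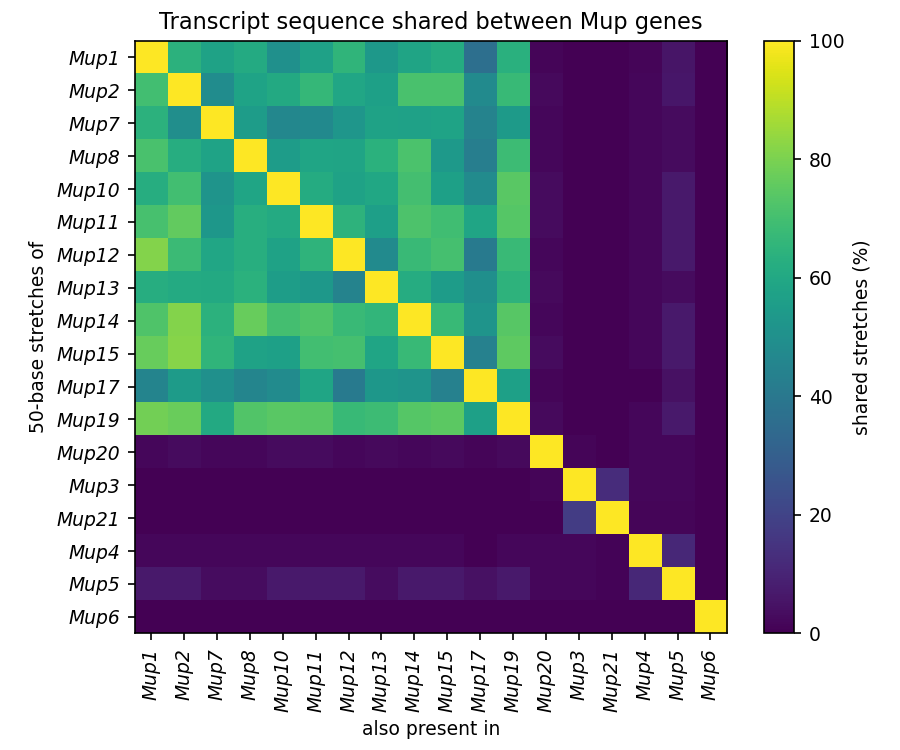
Percentage of the 50-base stretches of each row's transcripts that also occur in each column's transcripts, for the 18 Mup genes matched to a transcript. Mup1, Mup2 and Mup7 belong to the bright block of near-identical genes, while Mup20, with 4.66% of its stretches shared with any other Mup gene, lies outside it.

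Libraries held 18193071 to 21627696 expected counts, and the 8 members took 3.60% to 5.65% of them, while all 19 Mup rows took 8.25% to 13.4%. In TPM, the deposited unit scaled for transcript length and depth, the 19 rows summed to 160753, 191959.8 and 228110 in ConvD livers 1 to 3. They summed to 206259, 199556 and 211957 TPM in the GF+SCFA livers and to 243856, 219583 and 157538 TPM in the GF livers. So these transcripts made up a large part of all hepatic messenger RNA in every liver, and ConvD and GF livers spread widely around the narrow range of the GF+SCFA livers.

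**Figure D2:**
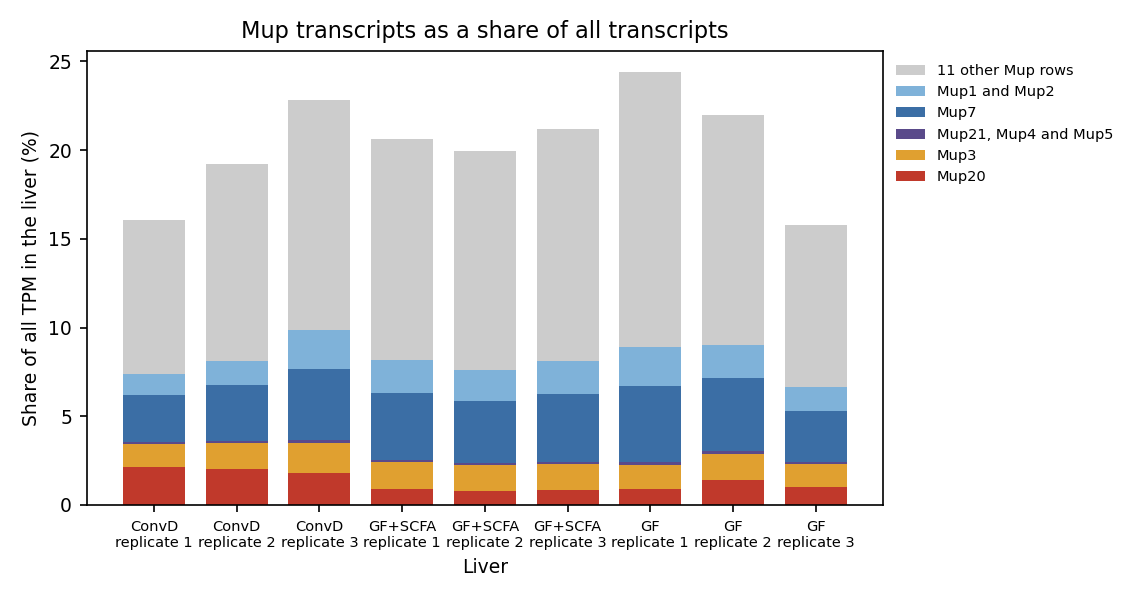
Share of all TPM in each liver (y axis, %) taken by Mup20, Mup3, the rarer members, Mup7, Mup1 with Mup2, and the 11 Mup rows that are not members (grey). The red Mup20 segment is tallest in the 3 ConvD livers, at 17901 to 21135 TPM, although total height varies between livers of 1 group.

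Mup20 had 21135, 20255 and 17901 TPM in the ConvD livers. It had 9048, 7578 and 8333 TPM in the GF+SCFA livers, and 8725, 14110 and 9983 TPM in the GF livers. The lowest ConvD liver lay above the highest liver of both germ-free groups, and GF replicate 2 stood above the other 2 GF livers. As CPM, the count scaled to the normalised library total, Mup20 averaged 10038 ± 453 in ConvD livers, 4505 ± 497 in GF+SCFA livers and 5872 ± 1763 in GF livers (SD, n = 3 each).

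Tested across all 12037 genes with edgeR's quasi-likelihood F test and Benjamini-Hochberg adjustment, Mup20 was 1.71-fold higher in ConvD than in GF livers. The log2 fold change was 0.77 (SE 0.17, 95% interval 0.39 to 1.16, adjusted p = 0.0161). Mup20 was the only member to pass the threshold of 0.05 in this comparison, as 1 of 8 higher and 0 lower, where 12.8% of all genes passed in either direction and 5.93% as higher. Its groups were also the only ones among the 8 members that did not overlap, against 31.6% of all genes. Against GF+SCFA livers Mup20 was 2.23-fold higher in ConvD livers (95% interval 1.71 to 2.91, log2 1.16, SE 0.17, adjusted p = 0.00145). There 1 of 8 members passed, where 18.4% of genes did in either direction and 9.44% as higher, and the groups of 1 member did not overlap, against 38% of all genes. Both comparisons use the same ConvD livers. In whole liver, more cells that make a transcript and more transcript per cell cannot be told apart.

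The ConvD excess of Mup20 over GF depended on single livers for its call. It did not pass without ConvD replicate 1 (log2 0.76, adjusted p = 0.0525) or without ConvD replicate 2 (log2 0.75, adjusted p = 0.0621), and the log2 fold change over 20 settings ran from 0.64 to 1.05. The excess over GF+SCFA livers passed in 20 of 20 settings, with log2 fold changes of 1.08 to 1.25.

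In GF+SCFA livers Mup20 had a log2 fold change of -0.38 against GF (95% interval -0.76 to -0.002), and this did not pass the test (adjusted p = 0.406). The ranges of the groups overlapped, GF replicate 2 was the highest of the 6 livers, and without GF replicate 2 the log2 fold change was -0.11. No member passed between GF+SCFA and GF livers in edgeR's test, where 0.0415% of genes did. At an unadjusted p under 0.05, 1 member, Mup20, would count, beside 12.3% of all genes. DESeq2 and limma also called 0 of 8, and the groups of 0 of 8 members were separate, against 17.9% of all genes.

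**Figure D3:**
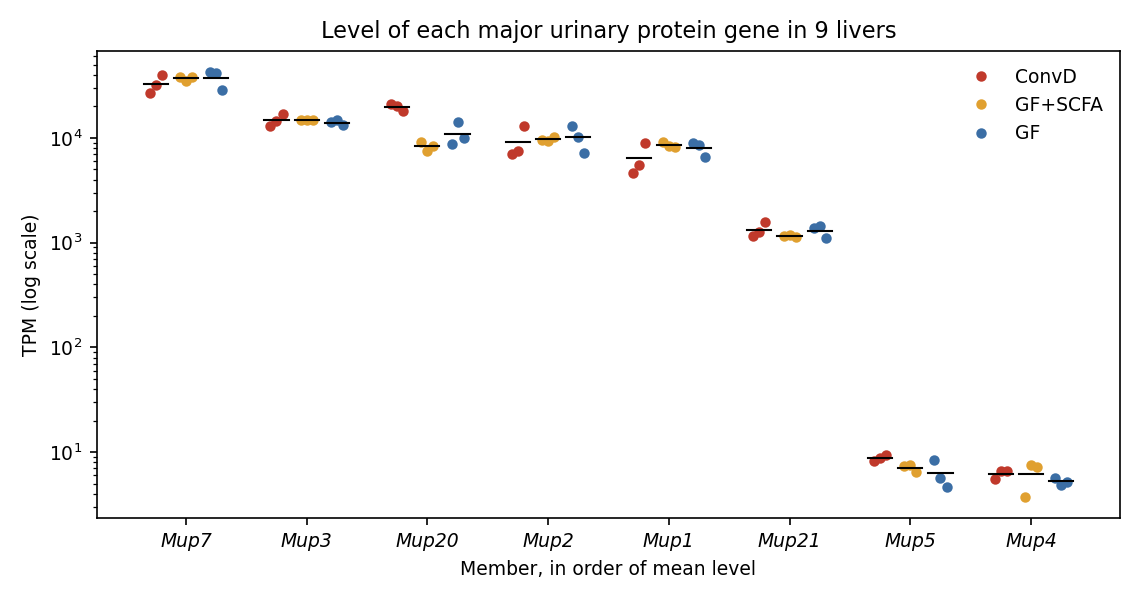
TPM (log scale) of the 8 members in each liver, with members ordered by mean level and a line at each group's mean. Mup20 is the member whose 3 ConvD points (17901 to 21135 TPM) lie apart from its germ-free points (7578 to 14110 TPM).

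Mup7, in the near-identical core, was the most abundant member per length. It had 26645, 31833 and 40035 TPM in ConvD livers, 37954, 34822 and 38123 TPM in GF+SCFA livers, and 42648, 41275 and 28415 TPM in GF livers. ConvD replicate 1 and GF replicate 3 were low, ConvD replicate 3 was high, and the groups overlapped. The log2 fold change was -0.26 in ConvD against GF (95% interval -0.74 to 0.22, adjusted p = 0.471) and -0.25 in ConvD against GF+SCFA (adjusted p = 0.462).

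Mup2 had 7037, 7509 and 13067 TPM in ConvD livers, 9497, 9322 and 10211 TPM in GF+SCFA livers, and 13116, 10272 and 7199 TPM in GF livers. Mup1, whose protein has been studied in mice as a circulating signal in glucose and lipid metabolism, had 4643, 5529 and 8962 TPM in ConvD livers, 9105, 8338 and 8260.3 TPM in GF+SCFA livers, and 9004, 8585 and 6535 TPM in GF livers. For both genes, as for Mup7, ConvD replicate 1 and GF replicate 3 were the lowest livers of their groups, and the groups overlapped. Unlike in Mup7, ConvD replicate 2 (5529 TPM) lay below GF replicate 3 (6535 TPM) in Mup1. In ConvD against GF the log2 fold change of Mup2 was -0.21 (95% interval -1.02 to 0.59, adjusted p = 0.734) and that of Mup1 was -0.41 (95% interval -1.06 to 0.25, adjusted p = 0.391). In ConvD against GF+SCFA, Mup1 had -0.51 (adjusted p = 0.247). Mup1 passed as lower in ConvD when ConvD replicate 3 was left out, with log2 -0.77 against GF (adjusted p = 0.0232) and -0.88 against GF+SCFA (adjusted p = 0.0101).

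The sum of Mup1, Mup2 and Mup7 does not depend on how reads were divided among those 3. It was 20313, 25402.5 and 35779.6 CPM in ConvD livers, 34166, 30194 and 33841 CPM in GF+SCFA livers, and 38386, 37030.4 and 22977.5 CPM in GF livers. The log2 difference of the sum was -0.27 for ConvD against GF and 0.03 for GF+SCFA against GF, with overlapping groups, and it can still trade reads with the other near-identical Mup rows.

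Mup3 and Mup21 are the members least like Mup2. Mup3 had 12987, 14494 and 17064 TPM in ConvD livers, 14978, 14742 and 14917 TPM in GF+SCFA livers, and 14049, 14726 and 13327 TPM in GF livers. The ConvD livers held both its lowest and its highest value, and its log2 fold change against GF was 0.02 (95% interval -0.25 to 0.29, adjusted p = 0.950). The interval for Mup3 was the narrowest of the 8 members in this comparison. Mup21 had 1152, 1254 and 1591 TPM in ConvD livers, 1148, 1177 and 1141 TPM in GF+SCFA livers, and 1380.2, 1434 and 1098 TPM in GF livers. Its groups overlapped too, and its log2 fold change of -0.04 in ConvD against GF (adjusted p = 0.914) turned to 0.02 and 0.04 under other scalings.

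Mup4 and Mup5 were by far the rarest members. Mup4 had 5.50, 6.66 and 6.56 TPM in ConvD livers, 3.76, 7.50 and 7.13 TPM in GF+SCFA livers, and 5.66, 4.90 and 5.21 TPM in GF livers. Mup5 had 8.30, 8.71 and 9.42 TPM in ConvD livers, 7.40, 7.52 and 6.42 TPM in GF+SCFA livers, and 8.38, 5.72 and 4.69 TPM in GF livers. Groups overlapped for both genes. The log2 fold change in ConvD against GF was 0.19 for Mup4 (adjusted p = 0.631) and 0.42 for Mup5 (95% interval -0.02 to 0.86, adjusted p = 0.200). Without GF replicate 1, whose Mup5 value was the highest of its group, Mup5 passed as higher in ConvD livers (log2 0.69, adjusted p = 0.0494).

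**Figure D4:**
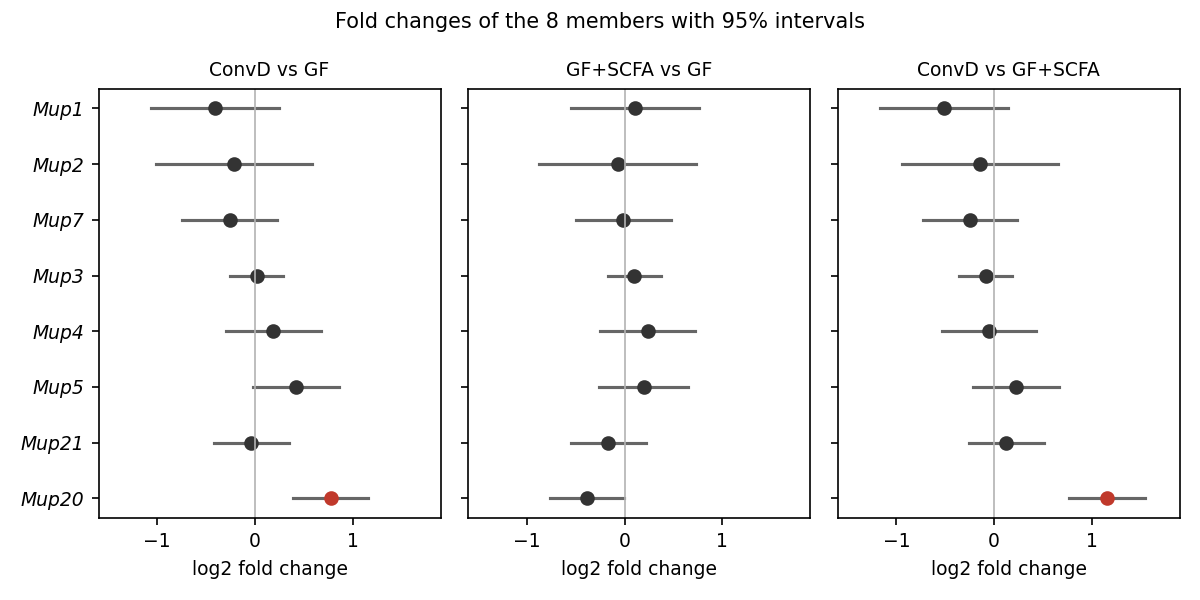
Log2 fold change of each member in the 3 comparisons, with lines for the 95% interval and red where the adjusted p was under 0.05. Mup20 alone is red, at 0.77 for ConvD against GF and 1.16 for ConvD against GF+SCFA.

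The order of levels per length changed with the group through Mup20. In ConvD livers Mup7 (mean 32838 TPM) was followed by Mup20 (19764 TPM) and Mup3 (14848 TPM), and the values of these 3 genes did not overlap. Mup2 (9204 TPM) overlapped both Mup3 and Mup1 (6378 TPM). In GF+SCFA livers Mup20, at 8319.8 TPM, came after Mup7 (36966 TPM), Mup3 (14879 TPM), Mup2 (9677 TPM) and Mup1 (8568 TPM), and its values overlapped those of Mup1. In GF livers Mup20 (10939 TPM) stood between Mup3 (14034 TPM) and Mup2 (10196 TPM) and overlapped both. Mup21, with group means of 1155 to 1332 TPM, and then Mup5 and Mup4 closed the order in all 3 groups, and Mup5 and Mup4 overlapped in both germ-free groups.

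Mup20 made up 24.0 ± 5.36% of the TPM of the 8 members in ConvD livers, 10.4 ± 0.564% in GF+SCFA livers and 13.5 ± 3.19% in GF livers (SD, n = 3 each). Mup7 made up 38.7 ± 2.27% in ConvD livers, 46.4 ± 0.622% in GF+SCFA livers and 45.4 ± 2.64% in GF livers. The count of Mup20 relative to the other 7 members was 0.375, 0.309 and 0.208 in ConvD livers. It was 0.115, 0.103 and 0.106 in GF+SCFA livers, and 0.101, 0.171 and 0.164 in GF livers. Every ConvD ratio thus exceeded every germ-free one, and the ConvD liver with the smallest ratio was the one with the most reads on the other members. A ratio within the family shows unequal change and does not say which part moved.

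**Figure D5:**
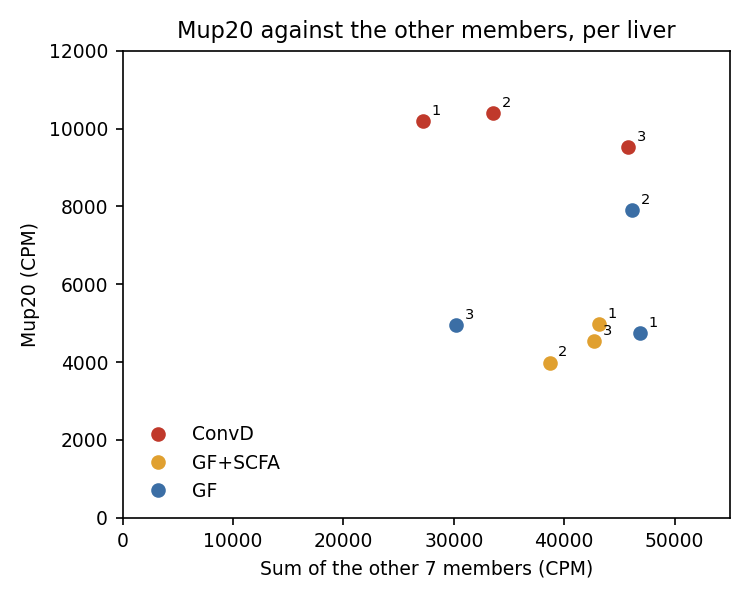
Mup20 (y axis, CPM) against the sum of the other 7 members (x axis, CPM) in each of the 9 livers, with the replicate number beside each point. The ConvD livers lie at 9527 to 10389.6 CPM on the y axis while spreading along the x axis between 27216 and 45816 CPM.

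The sum of the 8 members did not separate the groups. It was 37414, 43967 and 55342.5 CPM in ConvD livers, 48139, 42670.4 and 47270.0 CPM in GF+SCFA livers, and 51632, 54077 and 35186 CPM in GF livers. ConvD livers averaged 45575 ± 9072 CPM, GF+SCFA livers 46027 ± 2939 CPM and GF livers 46965 ± 10274 CPM (SD, n = 3 each). The lowest value came from GF replicate 3 and the highest from ConvD replicate 3, and the GF+SCFA livers lay within the range of both other groups. The log2 difference of the sum was -0.04 for ConvD against GF, -0.01 for GF+SCFA against GF and -0.03 for ConvD against GF+SCFA. The sign of these near-zero differences depended on the scaling. On the TPM scale they were 0.04 for ConvD against GF, -0.03 for GF+SCFA against GF and 0.07 for ConvD against GF+SCFA, and with library totals the difference for GF+SCFA against GF was 0.00155. The coefficient of variation of the sum was 19.9% in ConvD livers, 6.39% in GF+SCFA livers and 21.9% in GF livers, and no test was made of that difference in spread. The near-zero sum joins members that moved differently. Without Mup20 its log2 difference in CPM was -0.21 for ConvD against GF and -0.26 against GF+SCFA, with overlapping groups. Without Mup7 these were 0.16 and 0.19, also overlapping, but in TPM the ConvD livers lay above the GF+SCFA livers (0.27). The sum of the 8 members can also trade reads with near-identical Mup rows that are not members. Over all 19 Mup rows the log2 difference in CPM was -0.16 for ConvD against GF and -0.19 against GF+SCFA, with overlapping groups. It was 0.04 for GF+SCFA against GF, also overlapping.

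The median log2 fold change over the 8 members was -0.01 for ConvD against GF, 0.04 for GF+SCFA against GF and -0.07 for ConvD against GF+SCFA. The medians over all tested genes were 0.003, -0.006 and 0.006 in the same order of comparisons. For the 11 Mup rows that are not members the medians were -0.39, 0.04 and -0.37, and 0 of the 11 passed edgeR's test in any comparison.

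The members differed in how far they varied together from liver to liver. Within groups, deviations of Mup7 correlated with those of Mup1 at r = 0.94, of Mup2 at r = 0.94, of Mup3 at r = 0.93 and of Mup21 at r = 0.97. With Mup5 they correlated at r = 0.77, with Mup20 at r = 0.28 and with Mup4 at r = 0.26. These correlations describe 9 livers, and the core genes share reads as well as libraries. Genes averaging 50 or more expected counts numbered 9883, and the 5 of them most like the sum of the 8 members over the 9 livers were Mup14 (r = 0.95), C9 (r = 0.92), Isy1 (r = 0.91), Cml1 (r = 0.89) and Alg8 (r = 0.87). Mup14 is itself near-identical to Mup2, and C9 encodes the terminal complement component secreted by the liver. The 5 least like it were Ppp2cb (r = -0.95), Bola1 (r = -0.95), Rlim (r = -0.93), Chmp1b (r = -0.91) and Gdf2 (r = -0.91). Each r rests on 9 livers, whose groups and depths enter it. The 5 genes most like Mup20, a list added after its values were seen, were Ces2a (r = 0.98), Ubxn1, Eepd1, Ctps2 and Efha1.

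The gene lists that follow are read beside the share of all genes that passed, which was 5.93% higher and 6.9% lower in ConvD against GF and 9.44% higher and 8.97% lower in ConvD against GF+SCFA. Of 12 genes of the growth hormone and STAT5 axis, 1 rose and 1 fell in ConvD against GF livers, with a median log2 fold change of 0.001 beside 0.003 over all genes. Igfbp3, a binding protein for insulin-like growth factors, was higher (18.2 ± 0.935 CPM in ConvD and 11.4 ± 2.19 CPM in GF livers, adjusted p = 0.00294). Igf1, the growth hormone-induced growth factor, was lower (526 ± 63.9 CPM in ConvD and 644 ± 33.7 CPM in GF livers, adjusted p = 0.0486). The transcription factor gene Stat5b had 44.6 ± 4.33 CPM in ConvD and 44.0 ± 1.77 CPM in GF livers (adjusted p = 0.903), and the receptor gene Ghr had 550 ± 54.8 CPM in ConvD and 602 ± 5.70 CPM in GF livers (adjusted p = 0.292). Against GF+SCFA livers 2 rose and 2 fell, and the STAT5-induced feedback inhibitor Cish rose, at 22.0 ± 6.36 CPM in ConvD and 3.69 ± 0.882 CPM in GF+SCFA livers (adjusted p = 0.0318). Against GF livers, at 9.42 ± 6.53 CPM, Cish did not pass (adjusted p = 0.202) and the groups overlapped. Socs2, also of this list, had 14.4 ± 8.7 CPM in ConvD and 14.5 ± 9.8 CPM in GF livers (adjusted p = 0.994).

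Of 17 genes for transcription factors and cofactors known to act on Mup promoters or on hepatic transcription, 2 rose and 1 fell in ConvD against GF livers (median log2 fold change -0.08). Cebpa, a factor that maintains hepatocyte gene expression, had 247 ± 22.6 CPM in ConvD and 191 ± 20.8 CPM in GF livers (adjusted p = 0.0168). Foxa2, a pioneer factor of liver enhancers, had 16.5 ± 2.07 CPM in ConvD and 9.17 ± 2.43 CPM in GF livers (adjusted p = 0.0211). Zbtb20, a zinc-finger repressor, had 4.24 ± 0.839 CPM in ConvD and 9.06 ± 0.625 CPM in GF livers (adjusted p = 0.000786). The glucocorticoid receptor gene Nr3c1 did not pass (adjusted p = 0.547). Against GF+SCFA livers 3 of 17 rose and 4 fell.

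Of 20 other genes listed here as male-biased in mouse liver, 4 fell and 0 rose in ConvD against GF livers (median log2 fold change -0.14). Against GF+SCFA livers 4 fell and 3 rose. All livers were from males, so the sex bias of listed genes was not tested. Slco1a1, an organic anion uptake carrier, had 578 ± 33.0 CPM in ConvD and 728 ± 37.4 CPM in GF livers (adjusted p = 0.0106). Selenbp2, a selenium-binding protein gene, had 908 ± 213 CPM in ConvD and 1936 ± 512 CPM in GF livers (adjusted p = 0.0207), and the oxysterol hydroxylase Cyp7b1 fell too. The coregulator Trim24 also fell, but its place in a male-biased list is doubtful, and the counts above include it. Among 25 genes known as female-biased, 12 passed the filter on low counts, of which 5 fell and 0 rose in both ConvD comparisons (median log2 fold change -0.77 against GF and -0.87 against GF+SCFA). The genes that fell against GF include Sult1e1, at 0.065 ± 0.0746 CPM in ConvD and 0.619 ± 0.490 CPM in GF livers (adjusted p = 0.0232). Sult1e1 was near 0 in ConvD livers and passed the filter through germ-free livers, so little but a fall could be called for it. Lifr, the receptor for leukemia inhibitory factor, had 259 ± 16.1 CPM in ConvD and 426 ± 64.8 CPM in GF livers (adjusted p = 0.000605), and Prlr, the prolactin receptor, had 37.0 ± 5.39 CPM in ConvD and 49.6 ± 2.93 CPM in GF livers (adjusted p = 0.0106). Genes of both lists were thus among those lower in ConvD than in GF livers.

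Of 14 other lipocalin genes, 9 could be tested, with 2 higher and 1 lower in ConvD against GF livers, and 1 higher and 2 lower against GF+SCFA livers. Lcn2, the iron-siderophore carrier of innate defence, was 3.27-fold higher (6.93 ± 1.32 CPM in ConvD and 2.09 ± 0.916 CPM in GF livers, adjusted p = 0.000872), and Orm1, an acute-phase glycoprotein, 1.31-fold higher (adjusted p = 0.0231). Rbp4, the plasma carrier of retinol, was lower, at 2143 ± 139 CPM in ConvD and 2645 ± 157 CPM in GF livers (adjusted p = 0.0306). Of 20 genes for other abundant secreted liver proteins, 1 rose and 1 fell against GF, and 2 rose and 1 fell against GF+SCFA. Ttr, the thyroid hormone and retinol-binding protein carrier, rose (4706 ± 298 CPM in ConvD and 3666 ± 107 CPM in GF livers, adjusted p = 0.0143). Ahsg, the mineral-binding plasma protein fetuin-A, fell (5626 ± 326 CPM in ConvD and 7766 ± 540 CPM in GF livers, adjusted p = 0.00738). In GF+SCFA against GF livers no gene of these 6 lists passed edgeR's test.

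Markers of some other cell types moved with the ConvD group. Of 11 Kupffer cell and macrophage markers, 8 rose and 0 fell against GF, 3 rose and 0 fell against GF+SCFA, and their summed level was 493 to 716 CPM in ConvD livers, 372 to 458 CPM in GF+SCFA livers and 338 to 419 CPM in GF livers. All 4 neutrophil markers rose in both comparisons, to a sum of 6.54 to 11.4 CPM in ConvD livers, against 0.199 to 0.624 CPM in GF+SCFA livers and 0.594 to 0.986 CPM in GF livers, where Ltf was at 0. These 4 genes were near 0 in germ-free livers and passed the filter on low counts through the ConvD livers. Little but a rise could therefore be called for them, and the same holds for the lymphocyte marker Cd79a. Of lymphocyte markers, 1 of 2 tested rose against GF and 2 of 2 against GF+SCFA. Of 6 endothelial markers, 1 fell against GF, while 0 of 5 stellate cell and 0 of 5 cholangiocyte markers passed. Against GF+SCFA, 1 stellate cell and 1 cholangiocyte marker rose and 0 endothelial markers passed. Of 3 erythroid markers, 0 passed in either comparison, and they summed to 275 to 870 CPM in ConvD livers, 208 to 302 CPM in GF+SCFA livers and 229 to 322 CPM in GF livers. Of 8 hepatocyte markers, 1 rose and 3 fell against GF, 1 rose and 4 fell against GF+SCFA, and their sum was 104111 to 130130.5 CPM in ConvD livers, 105036 to 124013 CPM in GF+SCFA livers and 111100 to 127111 CPM in GF livers, so hepatocyte genes were abundant in all 9 livers. The part of these markers in the Mup20 result was not tested.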

How the data were processed

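Polyadenylated RNA libraries of 9 livers (TruSeq Stranded mRNA, per the labels' protocols) were processed by the authors with Bowtie2 and RSEM 1.2.23 on mouse build mm9, per the submitters' processing notes. The strand setting is not given in the sources used here. The deposited files hold unnormalised expected counts per gene and, per the file headers, TPM scaled by the authors for length and depth, and FPKM made by the authors on a similar basis, which were not used here. Of all expected counts above 0, 42.3% were not whole, because RSEM divides reads shared between genes.

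Expected counts were rounded and analysed in R 4.3.3 with edgeR 4.0.16: filterByExpr with a minimum count of 10 left 12037 genes, including all 8 members, with TMM scaling (factors 0.935 to 1.06), a model of the 3 groups over 9 livers (6 residual degrees of freedom), the quasi-likelihood F test and Benjamini-Hochberg adjustment over all genes. A gene passed at an adjusted p under 0.05. The SE follows from the F statistic, as the size of the log2 fold change over its root. Sums and shares over members were described without a test. The log2 ratio of Mup20 to the other 7 members was compared between groups with an exact two-sided permutation test over livers. DESeq2 1.42.0 and limma 3.58.1 on log2(TPM + 1) and log2(TPM + 0.1), computed from the deposited TPM, were alternatives, with other scalings, no filter, a replicate block and each liver left out. The fit was tested on simulated data.

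The members and gene lists were chosen with earlier results of these data known. Named list genes are among the 3 with the smallest adjusted p in ConvD against GF, except Stat5b, Ghr, Cish, Socs2, Nr3c1, Cyp7b1 and Cd79a, which were chosen after their values were seen. Genes like the family sum are the 5 with the highest and the 5 with the lowest Pearson correlation with it on log2 CPM, at a mean expected count of 50 or more. Adgre1 was matched under its older symbol, Emr1. Libraries within a group differed by more than counting noise (chi-square per degree of freedom 11.4 to 54.4), so none was a copy. Counting error is small beside the spread between livers except for Mup4 and Mup5, with 36.0 to 92.7 expected counts per liver. Another exception is Mup21 in GF+SCFA livers, where the coefficient of variation was 1.04% at 9327 to 10438 expected counts per liver.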

Additional observations from a re-analysis of the deposited data

How the results depend on the processing

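Over the alternatives named above, other than leaving out a liver, the 8 members gave the same calls as in the report. The count of members that passed was 0 to 2 for ConvD against GF when each liver was left out, being 2 without GF replicate 1 (Mup20 and Mup5) or ConvD replicate 3 (Mup20 and Mup1) and 0 without ConvD replicate 1 or 2. It was 1 to 2 for ConvD against GF+SCFA and 0 throughout for GF+SCFA against GF. The log2 difference of the family sum for ConvD against GF+SCFA, -0.03 over the 8 members, became 0.19 without Mup7 and -0.26 without Mup20, an alternative added after seeing the data. Over all 19 Mup rows it was -0.19.

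Small fold changes changed sign. For ConvD against GF, Mup21 became 0.0214 with upper-quartile scaling, 0.0442 with library totals, and 0.0265 and 0.0266 in limma. For GF+SCFA against GF, Mup7 became 0.00382 with library totals and 0.00349 in both limma fits. For ConvD against GF+SCFA, Mup4 became 0.00229 with upper-quartile scaling, 0.0155 with library totals, and 0.0648 and 0.0831 in limma. With each liver left out, log2 fold changes for ConvD against GF ran from -0.60 to 0.0196 for Mup2, -0.13 to 0.14 for Mup3 and -0.225 to 0.0897 for Mup21. For GF+SCFA against GF they ran from -0.0573 to 0.20 for Mup1, -0.30 to 0.17 for Mup2, -0.0166 to 0.47 for Mup5 and -0.21 to 0.10 for Mup7. For ConvD against GF+SCFA they ran from -0.53 to 0.0443 for Mup2, -0.23 to 0.0363 for Mup3, -0.29 to 0.10 for Mup4 and -0.0601 to 0.25 for Mup21. The cause was not tested.

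Deviations of same-numbered livers correlated at r = -0.0852 to 0.213, and those of differently numbered livers at r = -0.146 to 0.15. With 3 livers per group this cannot settle whether the numbers pair them, and the main fit treated the livers as unpaired. With a replicate block, 1 member passed for ConvD against GF, 0 for GF+SCFA against GF and 1 for ConvD against GF+SCFA, and the log2 difference of the family sum was -0.04, -0.01 and -0.03.

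Over all genes, 1544 passed for ConvD against GF, against 918 without GF replicate 1, 936 without ConvD replicate 1, 849 without ConvD replicate 2, and 934 and 904 in limma. For GF+SCFA against GF 5 passed, against 9 with library totals, 24 without the filter, 82 in DESeq2, 1 in limma, 173 without GF replicate 3 and 0 to 4 without another liver. For ConvD against GF+SCFA 2216 passed, against 1383 without GF+SCFA replicate 2, 1400 without GF+SCFA replicate 3 and 1465 without ConvD replicate 2. The share of passing genes that were higher was 46.2% for ConvD against GF, and 66.1% with upper-quartile scaling, 73.1% with library totals and 74.0% in limma. For ConvD against GF+SCFA it was 51.3%, and 66.8%, 72.4% and 75.6% in the same settings. With 3 livers per group, fold changes of Mup1 and Mup2 carry intervals over 1 log2 unit wide, so moderate differences in them were not detectable.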
